A study of Zea mays with 17 samples.

Results

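The tapetum (TAP) and the meiocytes (ME) of maize anthers 1.5 mm long were compared gene by gene over the nuclear genes of a deposited count table. All 44146 rows whose identifier begins with Zm00001d were taken as nuclear genes, of 46430 rows in the table. Of them, 22240 had at least 1 count in the 4 libraries compared, and 16676 of all 44146 passed a low-count filter over the captured libraries and were tested, while 27470 were not. In the test, 1686 nuclear genes were higher in TAP and 1201 were lower in TAP than in ME. Of the genes higher in TAP, 566 had no counts at all in ME, and of the genes lower in TAP, 66 stood at 1000 CPM or more in ME (counts scaled to a library total of 1000000).

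Both cell types came from the maize (Zea mays) inbred line W23, labelled wild type, which the growth notes list as W23 bz2 plants raised in a greenhouse. Tapetum and meiocytes were laser-captured from anthers at a length of 1.5 mm, with 2 libraries each, and again at 2.0 mm, with 2 libraries each. Other somatic cells of the anther (OSC, 2 libraries per length) were captured in the same way, and fixed whole anthers (FA, 3 libraries at 1.5 mm and 2 at 2.0 mm) were profiled beside them. The labels list no transgene and no treatment, and how many plants, anthers or captured cells stand behind a library is not given in the sources used here. The libraries were made from total RNA by CEL-seq2, which primes on poly(A) tails and counts the 3' ends of transcripts.

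The tapetum is the innermost layer of the anther wall and lies directly around the meiocytes. It is a secretory tissue that nourishes the developing pollen and later provides material for the pollen wall, and in maize it is also known as a source of phased small RNAs. The meiocytes are the cells that pair and recombine their chromosomes and divide into the haploid microspores.

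The 4 libraries differed in depth, with 495100 and 501897 counts in TAP at 1.5 mm against 2329806 and 2795716 counts in ME at 1.5 mm. Over all 17 libraries totals lay between 280760 and 4428287 counts. A level is given as CPM of all counts in the library. By counting error alone a count of 0 allows 3 counts, a mean of 6.02 CPM in TAP and 1.18 CPM in ME at 1.5 mm, so low levels are resolved less finely in TAP. Mitochondrial genes took 9.83% and 10.7% of the counts in TAP, against 7.40% and 3.53% in ME. Across genes, log2 CPM of the replicates correlated with a Pearson's r of 0.813 in TAP and 0.754 in ME. The second ME library was less like its own replicate than like the first ME library of the longer anthers (r = 0.865), so counts are also given without it. By a small margin, the first ME library too was less like its replicate than like the second ME library at 2.0 mm (r = 0.76). The ME replicates at 2.0 mm correlated with r = 0.767. Of 23 marker genes of meiocytes, tapetum and other somatic cells, 16 had a symbol in the RefSeq gene table and 0 of them could be paired with a row of the counts. The labelled cell types were therefore not checked against their markers, and the genes below carry identifiers without names or roles.

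Each gene's difference was tested by the quasi-likelihood test of edgeR and is called where the Benjamini-Hochberg adjusted p is under 0.05, over all 16940 rows tested. Nothing in the labels says that replicates came from separate plants, so a p measures the spread between these libraries, which may be technical. Among all rows tested, 10.0% were called higher in TAP and 7.13% lower in TAP, and the nuclear genes made up nearly all of them, with 1686 higher (10.1% of 16676) and 1201 lower (7.20%). Of the remaining 13789 nuclear genes, 2795 had an unadjusted p under 0.05. In 1655 of the 1686 genes higher in TAP both TAP libraries lay above both ME libraries, an order that 33.2% of all rows tested showed. In 1196 of the 1201 genes lower in TAP both TAP libraries lay below both ME libraries, as did 23.9% of all rows tested. Without the second ME library, 1500 genes were higher and 1218 lower in TAP, of which 959 and 974 were among the genes called with all libraries. Without the first TAP library the counts were 620 and 461, and without the second they were 591 and 246. In captured tissue a larger share of one cell type in the material and more RNA per cell of that type cannot be told apart.

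**Figure D1:**
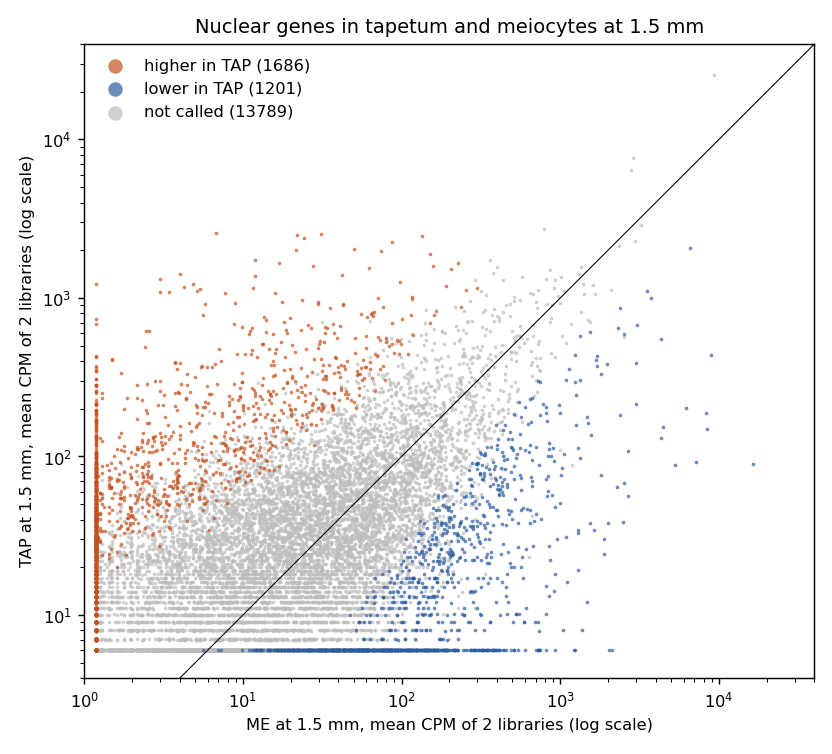
Mean CPM of the 2 TAP libraries (vertical, log scale) against the mean CPM of the 2 ME libraries (horizontal, log scale) at 1.5 mm, 1 point per nuclear gene tested, with means below the limit of 3 counts per library drawn at that limit. The 1686 genes higher in TAP fill the left and upper left, many of them at the ME limit of 1.18 CPM, the 1201 genes lower in TAP fill the lower right and many lie at the TAP limit of 6.02 CPM, and the 13789 genes not called surround the line of equal levels.

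Among the 1686 genes higher in TAP, 566 had 0 counts in both ME libraries (33.6%, against 12.6% of all nuclear genes tested), 273 had 1 to 3 counts there and 847 had more than 3. Their median level was 52.2 CPM in TAP, with quartiles of 24.0 and 134 CPM, against 0.715 CPM in ME. The median log2 fold change of TAP over ME was 5.71 as fitted and 4.44 with ME at its limit where it had 0 counts. Over all nuclear genes tested it was 0 and 0.05. These folds and the share at 0 counts in ME follow from the choice of the genes in the same libraries. By the fitted fold, with ME at its limit where it had 0 counts, 1038 genes differed at least 16-fold, 275 at least 64-fold and 42 at least 256-fold. By the ratio of mean CPM, with each group at no less than its limit, the counts were 1056, 190 and 19. Of the 1686 genes, 1651 stood above the TAP limit in TAP (97.9%, against 68.8% of all nuclear genes tested), and the rest did not. A level of 1000 CPM or more in TAP was reached by 37 of them. Their median length in the deposited table was 2046.5 bases, against 2177 bases over all nuclear genes tested.

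The genes higher in TAP with the largest ratio of means were at or near 0 in ME, and 6 of the 8 had no more than 10 counts in any TAP or ME library at 2.0 mm. Zm00001d053618 had 1143 and 1305 CPM in TAP, against 2.15 and 0 CPM in ME, and 54.0 and 49.9 CPM in OSC and 151, 142 and 194 CPM in FA at 1.5 mm. At 2.0 mm it had 0 counts in every captured library and a single count in FA. Its log2 fold change of TAP over ME at 1.5 mm was 9.89 ± 1.15 (SE; edgeR adjusted p = 0.00156). Zm00001d017724 had 794 and 683 CPM in TAP, against 0 and 0.358 CPM in ME, the second value being a single count. The ratio of TAP to ME was 3784, with an exact interval from counting error alone of 677 to 149651, and the adjusted p was 0.00137 by edgeR. Whole anthers held 415, 527 and 571 CPM of it at 1.5 mm, below captured TAP, and 4.74 and 0.865 CPM at 2.0 mm. Zm00001d048906 had 1337 and 1299 CPM in TAP, against 6.01 and 0 CPM in ME. Zm00001d014315 had 1105 and 1062 CPM in TAP, against 6.01 and 0 CPM in ME. In both genes all ME counts came from the first ME library, and TAP stood far above either ME library. Their adjusted p was 0.00271 and 0.00270 by edgeR, and 0.0524 and 0.0527 when the 4 libraries were fitted alone. Zm00001d035566 reached 2757 and 2391 CPM in TAP, against 12.9 and 0.715 CPM in ME, a log2 fold change of 8.34 ± 1.19 (SE; edgeR adjusted p = 0.00188). It was also abundant in FA at 1.5 mm, at 1252, 1441 and 1338 CPM, while all libraries at 2.0 mm lay at or below 5 counts. Zm00001d020821, the longest of these genes at 7252 bases, had 422 and 440.3 CPM in TAP, against 1.29 and 0 CPM in ME from 3 counts, a ratio of 737 with a counting interval of 250.5 to 3587.

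A pair of genes of this set kept a difference at 2.0 mm. Zm00001d033870 had 465 and 379 CPM in TAP, against 0 and 0.358 CPM in ME, at 1.5 mm. At 2.0 mm it had 15.4 and 46.7 CPM in TAP, against 0 counts in both ME libraries (edgeR adjusted p = 0.00363). Zm00001d010426 had 683 and 687 CPM in TAP, against 0.429 and 0 CPM in ME, the closest agreement between TAP replicates in this set. Its level in TAP was 5.27 and 17.03 CPM at 2.0 mm, where ME again had 0 counts (edgeR adjusted p = 0.00575). In OSC the same gene had 128 and 182 CPM at 1.5 mm and 310.3 and 477 CPM at 2.0 mm, so at the later length OSC and no longer TAP held the most of it among captured cells.

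**Figure D2:**
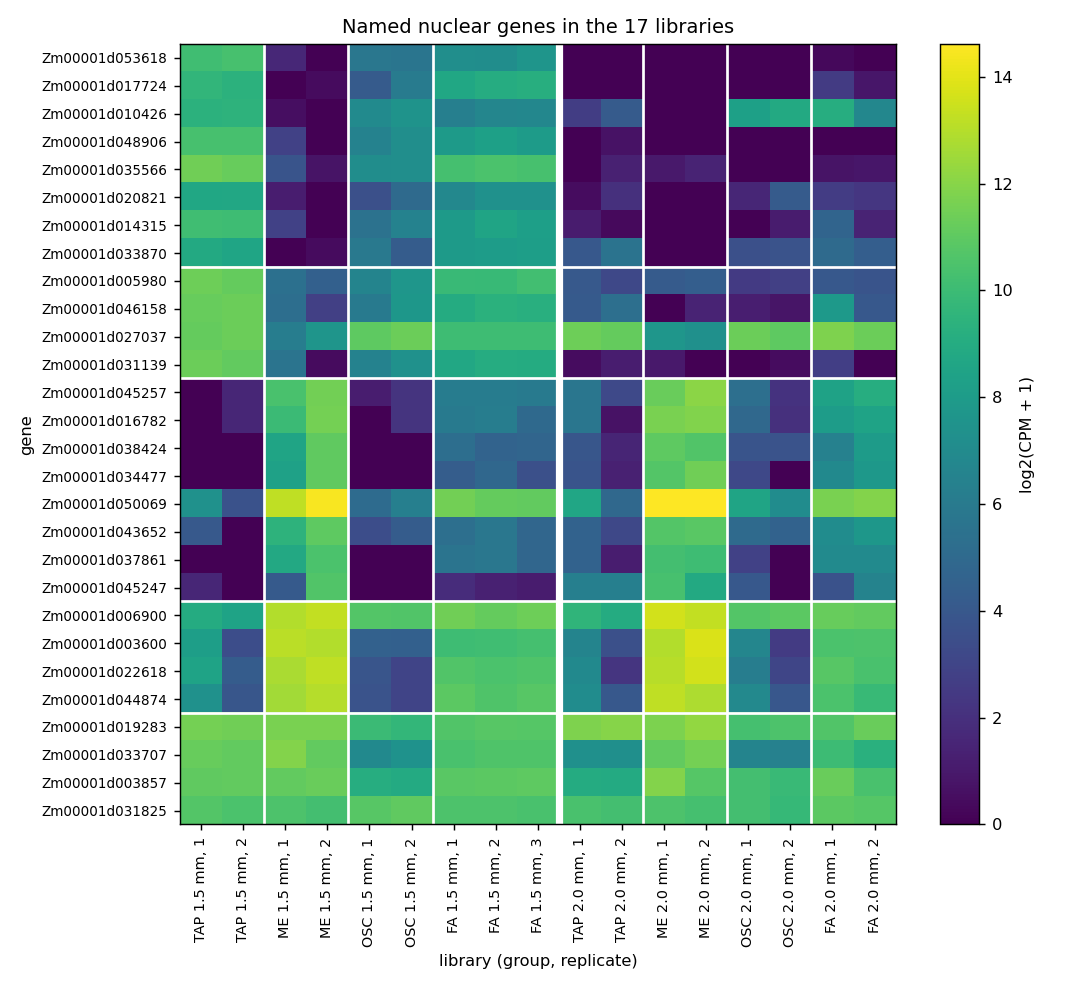
Levels of the 28 genes named by rule in all 17 libraries, as log2(CPM + 1), with genes down the page and libraries across, TAP before ME, OSC and FA at 1.5 mm and then at 2.0 mm. The upper 12 genes are brighter in TAP than in ME at 1.5 mm and most are dark in both at 2.0 mm, the next 12 are darker in TAP than in ME at both lengths, and the lowest 4 are bright in both at 1.5 mm.

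The most abundant of the other genes higher in TAP stood between 2218 and 2725 CPM in the TAP libraries. Zm00001d005980 had 2725 and 2321 CPM in TAP, against 41.2 and 21.1 CPM in ME, a log2 fold change of 6.08 ± 0.66 (SE; edgeR adjusted p = 0.000725). Zm00001d046158, a short row of 354 bases, had 2402 and 2558 CPM in TAP, against 38.2 and 5.72 CPM in ME (log2 fold change 6.59 ± 0.99, SE). Zm00001d031139 had 2539 and 2218 CPM in TAP, against 48.5 and 0.358 CPM in ME, so the first ME library held nearly all ME counts of it. In each of the 3 TAP exceeded ME without overlap, which the choice of named genes required. OSC at 1.5 mm lay between the means of TAP and ME. It ran from 94.4 and 203 CPM in the first gene to 87.1 and 167 CPM in the last. Zm00001d027037 had another distribution. It had 2307 and 2602 CPM in TAP, against 72.5 and 198 CPM in ME, but 2037 and 2529 CPM in OSC, so that OSC overlapped TAP and ME was lower than both. Its log2 fold change of TAP over ME was 3.88 ± 0.57 at 1.5 mm and 3.93 ± 0.57 at 2.0 mm (SE; edgeR adjusted p = 0.00180 and 0.000695). With the 4 libraries fitted alone, Zm00001d027037 and Zm00001d031139 had an adjusted p of 0.0538 and 0.0849.

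Where ME had 0 counts in both libraries, only a lower bound of the fold can be given. The genes with the largest bounds outside the set above, chosen after their values were seen, were Zm00001d046627, Zm00001d047417 and Zm00001d016297. Zm00001d046627 had 404 and 345 CPM in TAP, at least 317-fold higher than ME. Zm00001d047417 had 392 and 297 CPM in TAP, at least 292-fold higher than ME. Zm00001d016297 had 351 and 265 CPM in TAP, at least 261-fold higher than ME. All 3 were present in OSC at 1.5 mm at lower levels, from 4.91 and 24.9 CPM of Zm00001d047417 to 24.5 and 42.7 CPM of Zm00001d016297, and at 2.0 mm no TAP library held more than 2 counts of any of them.

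Among the 1201 genes lower in TAP, 273 had 0 counts in both TAP libraries (22.7%, against 12.4% of all nuclear genes tested), 203 had 1 to 3 counts there and 725 had more than 3. Their median level was 7.03 CPM in TAP, against 139 CPM in ME with quartiles of 61.9 and 312 CPM. The median log2 fold change of TAP over ME was -4.62 as fitted and -3.66 with TAP at its limit where it had 0 counts. Here too the folds and the share at 0 counts in TAP follow from the choice of the genes. By the fitted fold, with TAP at its limit where it had 0 counts, 504 genes differed at least 16-fold, 137 at least 64-fold and 14 at least 256-fold. By the ratio of mean CPM, with each group at no less than its limit, the counts were 316, 43 and 2. The lowest fitted fold, with TAP at its limit where it had 0 counts, was 0.933. Some of these calls thus lie under what the depth of TAP can resolve. The median length of the 1201 genes was 2100 bases. A level of 1000 CPM or more in ME was reached by 66 of them.

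Of the 8 genes with the largest ratio of means in this direction, 3 had 0 counts in TAP and 3 more had a single count there, and all 8 were lower in TAP again at 2.0 mm by their fitted fold. Zm00001d045257 had 0 and 1.99 CPM in TAP, the second value being a single count, against 1345 and 2916 CPM in ME. The ratio of ME to TAP was 2195, with a counting interval of 394 to 86710.0, and edgeR's adjusted p was 0.00180. Zm00001d016782 had 0 and 1.99 CPM in TAP, against 1016 and 3071 CPM in ME, a ratio of ME to TAP of 2131 with a counting interval of 382 to 84159. In both genes the second ME library was the higher, as in all 8 genes of this set. Zm00001d038424 had 0 counts in both TAP libraries, against 375 and 2091 CPM in ME, and was at least 205-fold lower in TAP. Zm00001d034477 had 0 counts in both TAP libraries, against 331 and 2109 CPM in ME, and was at least 203-fold lower in TAP. Zm00001d037861 had 0 counts in both TAP libraries, against 458 and 1396 CPM in ME, and was at least 154-fold lower in TAP. These 3 genes also had 0 counts in both OSC libraries at 1.5 mm, and whole anthers held 19.0, 27.9 and 10.8 CPM of Zm00001d034477 and 47.9, 53.6 and 27.3 CPM of Zm00001d037861. In the order given, the adjusted p of edgeR was 0.00180, 0.00527 and 0.00568, and 0.000337, 0.0231 and 0.0256 without the second ME library.

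Zm00001d050069 was the nuclear gene with the most counts in the second ME library, where it alone took 2.32% of them. It had 168 and 11.95 CPM in TAP, against 9466 and 23165 CPM in ME, a log2 fold change of -7.84 ± 1.40 (SE; edgeR adjusted p = 0.00382). OSC held 33.1 and 78.4 CPM and FA 2864, 2299 and 2241 CPM of it, and in ME at 2.0 mm it reached 24570.3 and 25081 CPM. The first TAP library held far more of it than the second, and both lay below either ME library, as the choice of named genes required. Zm00001d043652 had 16.2 and 0 CPM in TAP, against 694 and 2052 CPM in ME (log2 fold change -7.73 ± 1.13, SE; edgeR adjusted p = 0.00180). Zm00001d045247 rested on 1 library, with 2.02 and 0 CPM in TAP, against 16.7 and 1607 CPM in ME. The ratio of ME to TAP was 882 with a counting interval of 158 to 34834, but the adjusted p of 0.0179 by edgeR was 0.160 without the second ME library, 0.0863 without the first TAP library and 0.117 without the second. Whole anthers at 1.5 mm held 2.62, 1.55 and 1.16 CPM of it, below even the lower of its ME values.

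The most abundant of the other genes lower in TAP each stood far above 1000 CPM in both ME libraries. Zm00001d006900 had 515 and 353 CPM in TAP, against 7835 and 10071 CPM in ME, a log2 fold change of -4.66 ± 0.49 (SE; edgeR adjusted p = 0.000676). Without the second ME library its adjusted p was 6.32e-05, and OSC lay between both cell types at 1688 and 1578 CPM. Zm00001d003600 had 289 and 9.96 CPM in TAP, against 8879 and 7843 CPM in ME. Zm00001d022618 had 358 and 17.9 CPM in TAP, against 6980.0 and 9655 CPM in ME. Zm00001d044874 had 169.7 and 13.9 CPM in TAP, against 6247 and 8085 CPM in ME. In these 3 genes no TAP library reached an ME library, which the choice of named genes required. The first TAP library was high among TAP libraries and the second low. OSC at 1.5 mm was near the level of the second TAP library, from 12.3 and 7.12 CPM in Zm00001d044874 to 22.1 and 21.4 CPM in Zm00001d003600. The log2 fold changes of the 3 genes were -6.12 ± 1.53, -5.80 ± 1.54 and -6.61 ± 1.34 (SE), with edgeR adjusted p of 0.0170, 0.0227 and 0.00689. Without the second ME library the adjusted p was 0.0967, 0.127 and 0.0404. For Zm00001d003600 it was 0.0669 without the first ME library and 0.0764 without the second TAP library, and for Zm00001d022618 it was 0.0732 and 0.110.

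Of the genes at 0 counts in TAP, those with the largest bounds outside the set above, again chosen after their values were seen, were Zm00001d038425, Zm00001d003701 and Zm00001d016393. Zm00001d038425, whose identifier follows that of Zm00001d038424, had 523 and 926 CPM in ME and was at least 120.4-fold lower in TAP. Zm00001d003701 had 336 and 860.2 CPM in ME and was at least 99.4-fold lower in TAP. Zm00001d016393 had 224 and 643 CPM in ME and was at least 72.1-fold lower in TAP. All 3 had 0 counts in OSC at 1.5 mm as well, and all 3 were called lower in TAP at 2.0 mm, where TAP held at most 17.3 CPM of them.

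Genes abundant in ME also had counts in TAP, and more of them in the first TAP library. Over the 66 genes lower in TAP with 1000 CPM or more in ME, the summed level was 19374 and 14222 CPM in TAP, against 162112 and 193194 CPM in ME. The median over the 66 genes was 187 CPM in the first TAP library and 50.8 CPM in the second, and 53 of the 66 were higher in the first. In the other direction, the 37 genes higher in TAP with 1000 CPM or more there summed to 57837 and 57239 CPM in TAP, against 2992 and 1933 CPM in ME, and 29 of the 37 were higher in the first ME library than in the second. These sums move with single libraries, and their part in the fold changes was not tested.

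A number of abundant genes stood at a like level in both cell types. Of the 13789 nuclear genes not called, 2545 had mean CPM within 1.5 times of each other with no limit applied, and the 4 most abundant of those are named here as a level against which the differences can be seen. Zm00001d019283 had 3018 and 2787 CPM in TAP, against 3227 and 3273 CPM in ME (log2 fold change -0.44 ± 0.39, SE). Zm00001d031825 had 1689 and 1429 CPM in TAP, against 1484 and 1234 CPM in ME (log2 fold change -0.08 ± 0.42, SE), and its fitted sign is opposite to that of its mean CPM because the fit also applies the TMM factors (0.20 with library totals in their place). Zm00001d003857 had 2080.4 and 2158 CPM in TAP, against 2198 and 2474 CPM in ME (log2 fold change -0.42 ± 0.47, SE). Zm00001d033707 had 2416 and 2182 CPM in TAP, against 3754 and 2193 CPM in ME (log2 fold change -0.63 ± 0.43, SE). They were not called, with edgeR adjusted p between 0.319 and 0.955, which does not show that their levels were equal. In OSC the 4 genes were not alike, since Zm00001d031825 had 1815 and 2137 CPM there while Zm00001d033707 had 124 and 175 CPM.

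The counts of a library were divided unequally between both sets of genes. The 1686 genes higher in TAP took 24.4% of the counts in each TAP library, against 1.53% and 1.17% in the ME libraries. The 1201 genes lower in TAP took 4.56% and 3.39% of the counts in TAP, against 35.5% and 44.4% in ME. These shares follow from the choice of the genes. At 2.0 mm the genes higher in TAP at 1.5 mm took 14.7% and 15.1% of the counts in TAP, against 0.906% and 1.02% in ME. For the genes lower in TAP at 1.5 mm, the shares were 7.15% and 6.92% in TAP at 2.0 mm, against 46.0% and 46.2% in ME at 2.0 mm. OSC at 1.5 mm had 21.8% and 22.1% of its counts in the genes higher in TAP and 6.67% and 6.74% in the genes lower in TAP, so by both shares OSC lay nearer to TAP than to ME. Whole anthers lay in between, with 15.6% to 16.6% and 13.3% to 14.3% at 1.5 mm.

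**Figure D3:**
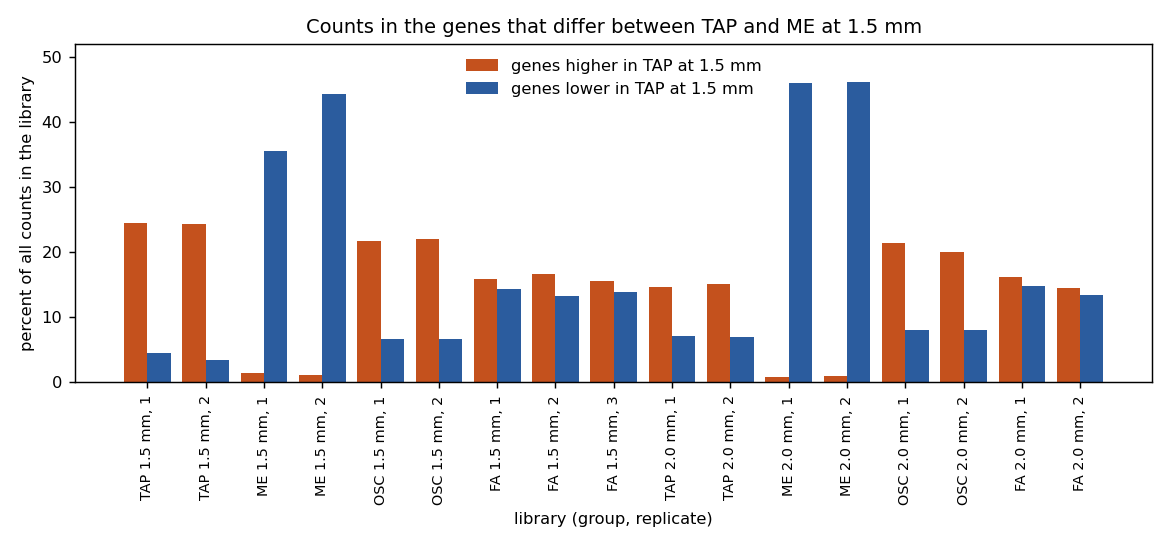
Percent of all counts of each of the 17 libraries that fell in the 1686 genes higher in TAP and in the 1201 genes lower in TAP at 1.5 mm. The share of the genes lower in TAP is 46.0% and 46.2% in ME at 2.0 mm, close to the 44.4% of the second ME library at 1.5 mm, and is at most 8.09% in all TAP and OSC libraries.

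The third captured group, OSC, shows how far a gene that set TAP and ME apart was shared with other cells of the anther. Comparisons of TAP with OSC and of ME with OSC share libraries with the comparison made here, so levels are given side by side without a test. For these classes each group was set at no less than its limit, 7.18 CPM in OSC. Of the 1686 genes higher in TAP, 347 (20.6%) had a mean level in TAP at least 4 times that in OSC. Another 1197 (71.0%) lay within 4 times of it, and in 142 (8.42%) OSC was at least 4 times TAP. Of the 1201 genes lower in TAP, 780 (64.9%) had a mean level in ME at least 4 times that in OSC. Another 410 (34.1%) lay within 4 times, and in 11 (0.916%) OSC was at least 4 times ME. A gene below 4 times the OSC limit in its higher cell type could not enter the first class. The lower quartile there was 24.0 CPM for the genes higher in TAP and 61.9 CPM for those lower. The classes of both sets are therefore not compared, and shares over all genes tested are not given. The median level of the genes higher in TAP was 52.2 CPM in TAP, against 0.715 CPM in ME, with 37.0 CPM in OSC and 37.2 CPM in FA. For the genes lower in TAP the medians were 7.03 CPM in TAP, against 139 CPM in ME, with 18.7 CPM in OSC and 46.6 CPM in FA.

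**Figure D4:**
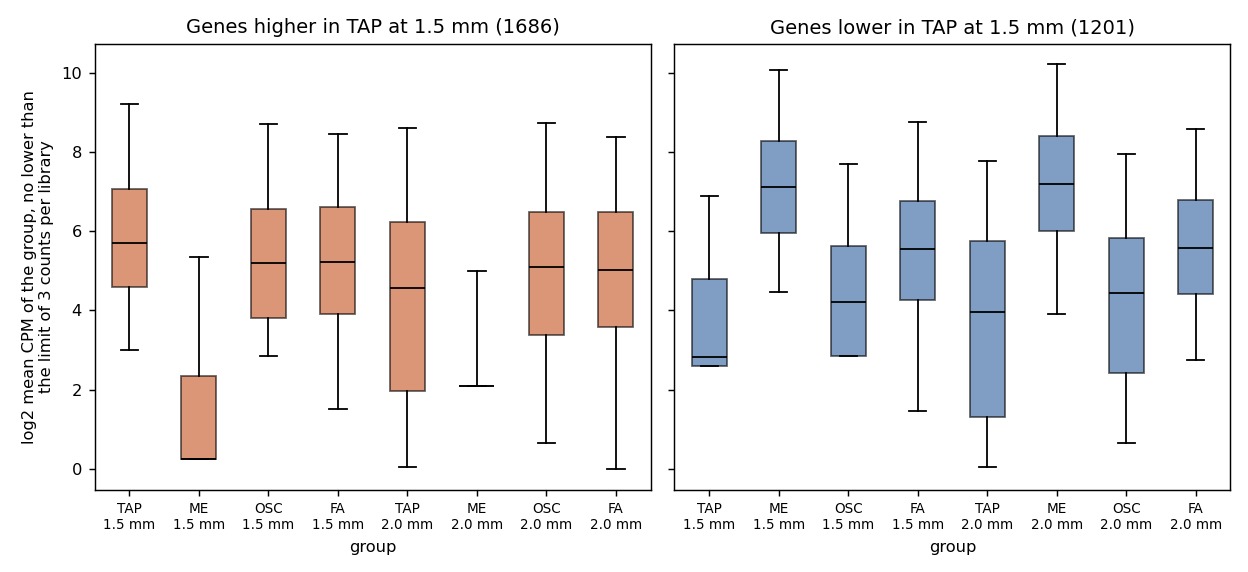
Log2 of the mean CPM per group, no lower than the limit of 3 counts per library, for the 1686 genes higher in TAP (left) and the 1201 genes lower in TAP (right) at 1.5 mm, in 8 groups. Boxes show the quartiles and lines the median. Whiskers run to a fixed low and a fixed high percentile, and values beyond them are not drawn. The genes higher in TAP have a median of 52.2 CPM in TAP, 37.0 CPM in OSC and 37.2 CPM in FA at 1.5 mm and lie near the limit in ME at both lengths, while the genes lower in TAP are highest in ME at both lengths.

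Genes of each class show the range of these patterns, and the most abundant of each class outside the genes above were taken after their values were seen. Zm00001d011121 and Zm00001d016620 had a level in TAP at least 4 times that in OSC. Zm00001d011121 had 2351 and 1743 CPM in TAP, against 50.2 and 50.4 CPM in ME, and 92.0 and 253 CPM in OSC. Zm00001d016620 had 1901 and 2132 CPM in TAP, against 42.9 and 0.358 CPM in ME, and 82.2 and 142 CPM in OSC. Zm00001d013751 and Zm00001d029394 were within 4 times of OSC in TAP and lower in ME than in both. Zm00001d013751 had 2272 and 2219.6 CPM in TAP, against 23.2 and 152 CPM in ME, and 877 and 933 CPM in OSC. Zm00001d029394 had 2058 and 1753 CPM in TAP, against 153 and 147 CPM in ME, and 1175 and 1418 CPM in OSC. In Zm00001d032239 and Zm00001d045254 OSC had the highest level of the captured cells. Zm00001d032239 had 208 and 347 CPM in TAP, against 0.858 and 11.1 CPM in ME, and 1576 and 1606 CPM in OSC. Zm00001d045254 had 345 and 49.8 CPM in TAP, against 3.43 and 4.29 CPM in ME, and 15338 and 17431 CPM in OSC. The level of Zm00001d045254 in OSC was thus far above either TAP library, its TAP libraries differed widely, and whole anthers held 4737, 4169.7 and 3672 CPM of it.

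The genes lower in TAP gave the same classes with ME in place of TAP. Zm00001d030725 had 2131 and 2030.3 CPM in TAP, against 6469.6 and 6761 CPM in ME, and 1039 and 937 CPM in OSC, so it was abundant everywhere and highest in ME. Zm00001d039101 had 396 and 5.98 CPM in TAP, against 7693 and 4732 CPM in ME, and 15.9 and 46.3 CPM in OSC, with the first TAP library far above the second. Zm00001d013367 had 622 and 564 CPM in TAP, against 4028 and 985 CPM in ME, and 782 and 994 CPM in OSC. Zm00001d033535 had 923 and 805 CPM in TAP, against 3192 and 1565 CPM in ME, and 759 and 602 CPM in OSC. In these last 2 genes the first ME library was well above the second, and edgeR's adjusted p was 0.100 and 0.0720 without the first ME library, against 0.0157 and 0.0237 with it. Without the first and without the second TAP library it was 0.0648 and 0.0869 for Zm00001d013367 and 0.0743 and 0.116 for Zm00001d033535. The call of Zm00001d033535 was also lost with RLE factors (edgeR adjusted p = 0.0552), after thinning to equal totals (0.0543) and with the 4 libraries alone (0.107). Zm00001d031128 had 46.5 and 25.9 CPM in TAP, against 223 and 235 CPM in ME, and 952 and 929.6 CPM in OSC. Zm00001d038891 had 6.06 and 9.96 CPM in TAP, against 73.4 and 107 CPM in ME, and 421 and 566 CPM in OSC. This pair was lowest in TAP and highest in OSC, with ME between them and no overlap among the 3 groups. The call of Zm00001d038891 was lost without either TAP library, at an adjusted p of 0.117 and 0.0881, against 0.0181 with both. For Zm00001d039101 the adjusted p was 0.0137, and it was 0.0624 and 0.0522 without the first and without the second ME library.

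The libraries at 2.0 mm show how far the differences held in longer anthers. They entered the choice of genes only through the low-count filter and the fit's estimate of the spread. At 2.0 mm, 18.1% of all rows tested were called higher in TAP, and of the 1686 genes higher in TAP at 1.5 mm, 980 (58.1%) were called so again. Of the 1201 genes lower in TAP at 1.5 mm, 716 (59.6%) were called lower again, against 9.66% of all rows tested. The direction was the same for 1460 (86.6%) of the genes higher in TAP, where 57.5% of all nuclear genes tested were higher in TAP, and for 1091 (90.8%) of the genes lower in TAP, where 35.6% of all were lower. Both TAP libraries lay above both ME libraries in 1286 of the 1686 (76.3%), against 40.4% of all rows tested, and below them in 995 of the 1201 (82.8%), against 21.7% of all rows tested. The median log2 fold change at 2.0 mm, as fitted, was 5.02 for the genes higher in TAP and -3.07 for those lower in TAP, against 0.70 over all nuclear genes tested. A call in the opposite direction was made for 8 and 16 genes. Of the 1686 genes, 931 had 0 counts in both ME libraries at 2.0 mm, so their fitted folds have no measured ME level behind them. ME at 2.0 mm lay above its limit of 4.22 CPM in 21.8% of the 1686, against 58.4% of all nuclear genes tested.

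Of the genes named by rule, those higher and those lower in TAP are counted here as single genes. Called in the same direction at 2.0 mm were 4 of the 12 higher in TAP (Zm00001d033870, Zm00001d010426, Zm00001d046158 and Zm00001d027037) and 11 of the 12 lower in TAP, all but Zm00001d045247, whose adjusted p was 0.129 by edgeR. In TAP itself the mean of 11 of the 12 genes higher there had dropped below 10% of its value at 1.5 mm, and in FA that of 9 of the 12. Over all 1686 genes higher in TAP this held for 436 in TAP (25.9%, against 11.5% of all nuclear genes tested) and for 130 in FA (7.71%, against 2.07%). Of the 1201 genes lower in TAP, 14 (1.17%) had dropped below 10% of their value in ME, against 17.8% of all nuclear genes tested, and none of the 12 named had. The genes were chosen for their levels at 1.5 mm and depth differed between the lengths, so these drops are a description without a test.

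**Figure D5:**
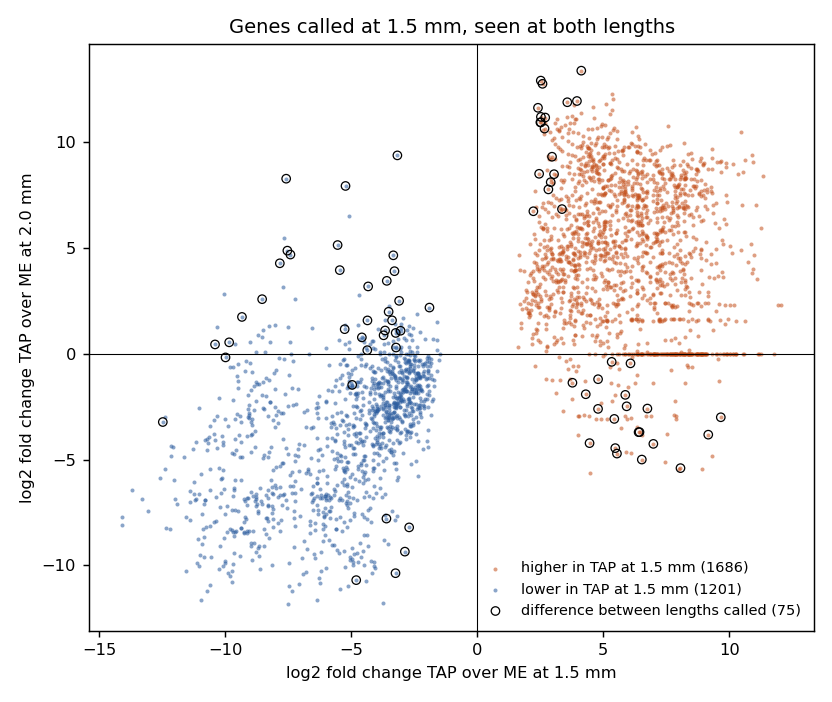
Log2 fold change of TAP over ME at 2.0 mm (vertical) against that at 1.5 mm (horizontal) for the 1686 genes higher in TAP and the 1201 genes lower in TAP at 1.5 mm, with rings around the 75 genes whose difference between lengths was called. Most points lie in the upper right and lower left, and the row of points at 0 on the vertical axis holds genes with no counts, or equal levels, in both cell types at 2.0 mm.

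The difference between the lengths was itself tested in the fit. It was called for 1.12% of all rows tested, and for 178 nuclear genes, while 2802 nuclear genes had an unadjusted p under 0.05. Among the 1686 genes higher in TAP it was called for 38, of which 20 were weaker or turned at 2.0 mm and 18 stronger. Among the 1201 genes lower in TAP it was called for 37, of which 32 were weaker or turned and 5 stronger. The 1.5 mm libraries by which both sets were chosen also enter this test. These counts and their directions therefore follow in part from the choice of the genes. Of the genes named by rule, Zm00001d005980 and Zm00001d033707 had such a difference. Zm00001d005980 had 16.2 and 8.05 CPM in TAP, against 17.5 and 19.7 CPM in ME, at 2.0 mm, and was not called there (edgeR adjusted p = 0.598). The log2 change of its fold between lengths was -6.54 (edgeR adjusted p = 0.00645). Zm00001d033707, at a like level in both cell types at 1.5 mm, had 158 and 152 CPM in TAP, against 2163 and 3052 CPM in ME, at 2.0 mm (log2 change of the fold -3.28, edgeR adjusted p = 0.0274). In ME its levels overlapped between the lengths, while in TAP both libraries at 2.0 mm lay far below those at 1.5 mm.

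A few genes turned, being called in opposite directions at both lengths and in the difference. There were 7 of them among the genes higher in TAP at 1.5 mm and 15 among those lower, and the 3 most abundant of each are given as a description, since they were chosen by these calls. Zm00001d045497 had 1672 and 1129.7 CPM in TAP, against 53.2 and 30.8 CPM in ME, at 1.5 mm, and 21.4 and 31.9 CPM in TAP, against 72.9 and 299 CPM in ME, at 2.0 mm. Zm00001d027748 had 967 and 881 CPM in TAP, against 8.58 and 9.30 CPM in ME, at 1.5 mm, and 0.376 and 0.929 CPM in TAP, against 16.4 and 3.58 CPM in ME, at 2.0 mm. Zm00001d032921 had 414 and 383 CPM in TAP, against 5.15 and 9.30 CPM in ME, at 1.5 mm, and 0.376 and 0 CPM in TAP, against 0 and 14.3 CPM in ME, at 2.0 mm. In all 3 genes TAP was far lower at 2.0 mm than at 1.5 mm, and the ME values of Zm00001d032921 at 2.0 mm were 0 and 8 counts. Those of Zm00001d027748 were 16 and 2 counts, against 1 and 3 counts in TAP. Its second ME value lay under the limit of 5.36 CPM of that library. Whole anthers at 1.5 mm held 3.93, 14.7 and 1.45 CPM of Zm00001d027748, well below both TAP libraries. Zm00001d025542 had 74.7 and 35.9 CPM in TAP, against 213 and 128 CPM in ME, at 1.5 mm, and 486 and 680.4 CPM in TAP, against 93.4 and 197 CPM in ME, at 2.0 mm. Zm00001d043517 had 24.2 and 7.97 CPM in TAP, against 70.0 and 153 CPM in ME, at 1.5 mm, and 464 and 419 CPM in TAP, against 95.5 and 76.9 CPM in ME, at 2.0 mm. Zm00001d005459 had 14.1 and 3.98 CPM in TAP, against 112 and 61.5 CPM in ME, at 1.5 mm, and 235 and 292 CPM in TAP, against 103 and 41.1 CPM in ME, at 2.0 mm. Here TAP was the lower cell type at 1.5 mm and stood above both ME libraries at 2.0 mm, while OSC held 147 and 110.4 CPM of Zm00001d005459 at 1.5 mm and 1483 and 1505 CPM at 2.0 mm. The call of Zm00001d025542 at 1.5 mm had an adjusted p of 0.0452 by edgeR, and of 0.0749, 0.249 and 0.101 without the first TAP, the second TAP and the first ME library. It was also lost with the replicate block (0.0671), RLE factors (0.0862), library totals (0.0837), no low-count filter (0.0762) and the 4 libraries alone (0.112). Without the second TAP library the adjusted p of Zm00001d043517 was 0.113 and that of Zm00001d005459 was 0.0671.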

How the data were processed

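RNA of laser-captured tapetum, meiocytes and other somatic cells and of fixed anthers was sequenced from CEL-seq2 libraries, per the labels. The authors deposited 1 table of raw counts per gene, whole numbers with different totals per library, and a length per gene. The submitters' processing notes name fastp, Trim Galore and HISAT2, with no versions. The counting tool, genome build, annotation, use of strand and collapsing of molecular identifiers are not given in the sources used here, so genes that overlap or share reads with a near-identical copy are uncertain. The 17 libraries were grouped by sample title, and 0 columns were left unassigned.

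The 12 captured libraries were fitted together with edgeR 4.0.16 (limma 3.58.1, R 4.3.3) by a robust quasi-likelihood fit with 1 mean per group. TMM factors followed filterByExpr by group (minimum count 10, minimum total 15), with library sizes recomputed after it. The filter left 16940 rows, and p-values were adjusted by Benjamini-Hochberg over all of them with a threshold of 0.05. The contrasts were TAP minus ME at 1.5 mm, at 2.0 mm, and their difference. CPM are relative to the total over all rows. SE is the log2 fold change divided by the root of F. No single gene was put to an exact permutation test, whose smallest two-sided p is 0.333 for 2 libraries against 2. Limits of 3 counts per library and exact 95% intervals of ratios cover counting error only. Scripts were tested on simulated data.

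Named genes had to be called, with TAP and ME libraries that did not overlap and 20 counts or more on average in the higher of both groups. From them came, in each direction, the 8 with the largest ratio of mean CPM and the 4 most abundant of the rest, with 4 uncalled genes at a like level. A further 24 were chosen after their values were seen. All members and lists were chosen with earlier results of these data known. The 9 gene lists and the marker list gave 0 matched rows, since 0 of the 44146 nuclear identifiers occur in the RefSeq table of gene names, so no gene group is tested and no sequence is shown.

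Alternatives were RLE factors, library totals, scaling on nuclear rows, no filter, DESeq2 1.42.0, all 17 libraries, the 4 libraries alone, a replicate block, thinning to equal totals and leaving out each library, where the lone library left in its group is assumed to vary like the other groups. Summaries and figures used Python 3.11.15 with pandas 2.3.3, NumPy 2.4.6, SciPy 1.17.1 and matplotlib 3.10.9.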

Additional observations from a re-analysis of the deposited data

Results flagged for a closer look

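In 9 of the genes described, the difference between TAP and ME was not the same at both lengths by the test of the difference itself (edgeR's quasi-likelihood test with Benjamini-Hochberg adjustment). The log2 fold change of TAP over ME at 2.0 mm minus that at 1.5 mm was -6.54 for Zm00001d005980 (adjusted p = 0.00645), -3.28 for Zm00001d033707 (0.0274) and -5.72 for Zm00001d045254 (0.0267). Zm00001d045254 had 4.14 and 3.10 CPM in TAP, against 5.13 and 5.36 CPM in ME, at 2.0 mm, so TAP was no longer the higher there, and it was not called (adjusted p = 0.763). For the genes chosen because they turned, the values were -7.40 for Zm00001d045497, -10.11 for Zm00001d027748 and -9.93 for Zm00001d032921, which were higher in TAP at 1.5 mm. They were 4.07 for Zm00001d025542, 5.60 for Zm00001d043517 and 5.50 for Zm00001d005459, which were lower in TAP at 1.5 mm. The 9 genes were chosen by values from the 1.5 mm libraries, which also enter this test. These differences therefore follow in part from the choice.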

How the results depend on the processing

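Of the 1686 and 1201 calls, 181 higher and 119 lower in TAP were made under every setting, and no call turned into one of the opposite direction under any. The fitted sign alone did turn for 22 calls without the first TAP library, 9 without the second and 2 without the second ME library. DESeq2 called 2759 genes higher and 1460 lower, RLE factors 2012 and 996, and library totals 1948 and 990. A fit of all 17 libraries called 2839 higher and 2434 lower, and a fit of the 4 libraries alone called 211 and 194. Leaving out 1 of the 4 libraries gave 591 to 1500 higher and 246 to 1367 lower. The genes higher in TAP at 1.5 mm were also higher at 2.0 mm in 86.6%, and in 84.3% without the low-count filter, 83.7% with all 17 libraries, 97.5% with the 4 libraries alone, 84.1% after thinning to equal totals, and 87.1% to 89.0% without 1 library. For the genes lower in TAP the 90.8% became 94.2% with RLE factors, 93.2% with library totals, 88.8% without the filter, 85.8% with all 17 libraries, 98.4% with the 4 libraries alone, and 86.9% to 95.2% without 1 library. Each setting called its own genes at 1.5 mm, so these shares rest on different genes and are not compared with each other. The fits of the 4 libraries alone were filtered separately at each length, so a gene dropped at 2.0 mm had no fold there. Shares over all genes tested are not given for these settings, and the cause of the moves was not tested. RLE factors, library totals and DESeq2 moved the median log2 fold change of all nuclear genes to 0.20, 0.17 and 0.24. TMM on the full library totals, added after the data were seen, gave 1489 higher and 1428 lower.

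Replicate numbers are shared between groups, but the deviations of same-numbered TAP and ME libraries at 1.5 mm correlated with r = 0.00639 across genes, so the numbers were not taken to pair the libraries. With the replicate number as a block, 1347 genes were higher and 965 lower in TAP, and 91.4% and 92.6% of them kept that direction at 2.0 mm.

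Over the 52 named genes and 14 settings, 675 values kept their side of the threshold and 53 lost the call, 23 of these in the fit of the 4 libraries alone. Named genes that kept the call in that fit had an edgeR adjusted p from 0.0488 to 0.0493 there. They too stood close to the threshold of 0.05. Depth limits the low end, since a count of 0 allows a mean of 6.02 CPM in TAP, against 1.18 CPM in ME.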
